A study of Mus musculus with 6 samples.

Results

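Endoplasmic reticulum (ER) chaperones, translocation and quality-control genes were followed in pancreatic islets as a set of 41 named genes, each found by its symbol in a table of 54556 genes. The set covers the steps a secreted protein passes: 8 genes of targeting and translocation, 4 of signal peptidase, 3 of oligosaccharyltransferase, 9 of the lumenal Hsp70 and Hsp90 system, 2 lectin chaperones, 5 disulfide isomerases and relatives, 7 of ER-associated degradation and 3 of stress sensing. RNA was sequenced from whole islets of C57BL/6 mice aged 8 weeks on normal chow, with 3 libraries of mice labelled Mettl3 flox/flox and 3 of mice labelled beta-Mettl3-KO, which are Mettl3 flox/flox and carry RIP-Cre (Cre recombinase under a rat insulin promoter). These groups are called flox/flox and labelled knockout, and their libraries are numbered 1 to 3 as in the labels. All 6 libraries have the floxed Mettl3 allele and none has Cre without it, so what Cre does and what the deletion does cannot be told apart. Mettl3 encodes the enzyme that places N6-methyladenosine on mRNA. The labels name no individual mice, no Cre line, no deleted exons and no pooling of islets, and every p-value reflects only how these libraries vary, which may be technical.

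Proteins made for secretion are guided by the signal recognition particle to the Sec61 channel, lose their signal sequence to signal peptidase, receive glycans from oligosaccharyltransferase and fold with the help of chaperones and disulfide isomerases. Chains that fail to fold are pulled back to the cytosol and degraded, and the sensors IRE1 (gene Ern1), ATF6 and PERK raise folding capacity when unfolded chains accumulate. Insulin-making β cells and antibody-making plasma cells both depend on this machinery.

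Of the 41 genes, 4 were higher and 9 lower in the labelled knockout at an adjusted p under 0.05 (limma on log2 of scaled FPKM, fragments per kilobase relative to library size), and 28 did not pass. The 4 higher genes were the Hsp70 chaperone Hspa5, the disulfide isomerases Pdia3 and Pdia4, and the stress sensor Ern1, with log2 differences from 0.50 to 1.02. The 9 lower genes were Sec61b, Ssr1, Ssr4 and Srp9 of targeting and translocation, Spcs1, Spcs2 and Spcs3 of signal peptidase, and Derl1 and Derl2 of degradation, with log2 differences from -0.68 to -0.29, of which those of Derl1, Srp9, Ssr1 and Ssr4 turned above 0 under scaling by library total, where Derl2 alone of the 9 still passed. The 4 higher genes make 9.76% of the set, against 16.9% called higher among all 14497 genes tested. The 9 lower genes make 22% of the set, against 17.2% called lower among all genes tested, where 34% were called in either direction. Groups that did not overlap, with every labelled-knockout library above every flox/flox library, occurred in 4 members (9.76%, against 25.1% of all genes). The reverse occurred in 17 members (41.5%, against 25.4% of all genes). The median log2 difference was -0.23 over the set and -0.0045 over all genes tested. Of the members that did not pass, 23 lay below 0 and 5 above. These signs depend on the scale: under scaling by library total 26 of the 41 members turned from below 0 to above it, 4 of them called lower here.

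**Figure D1:**
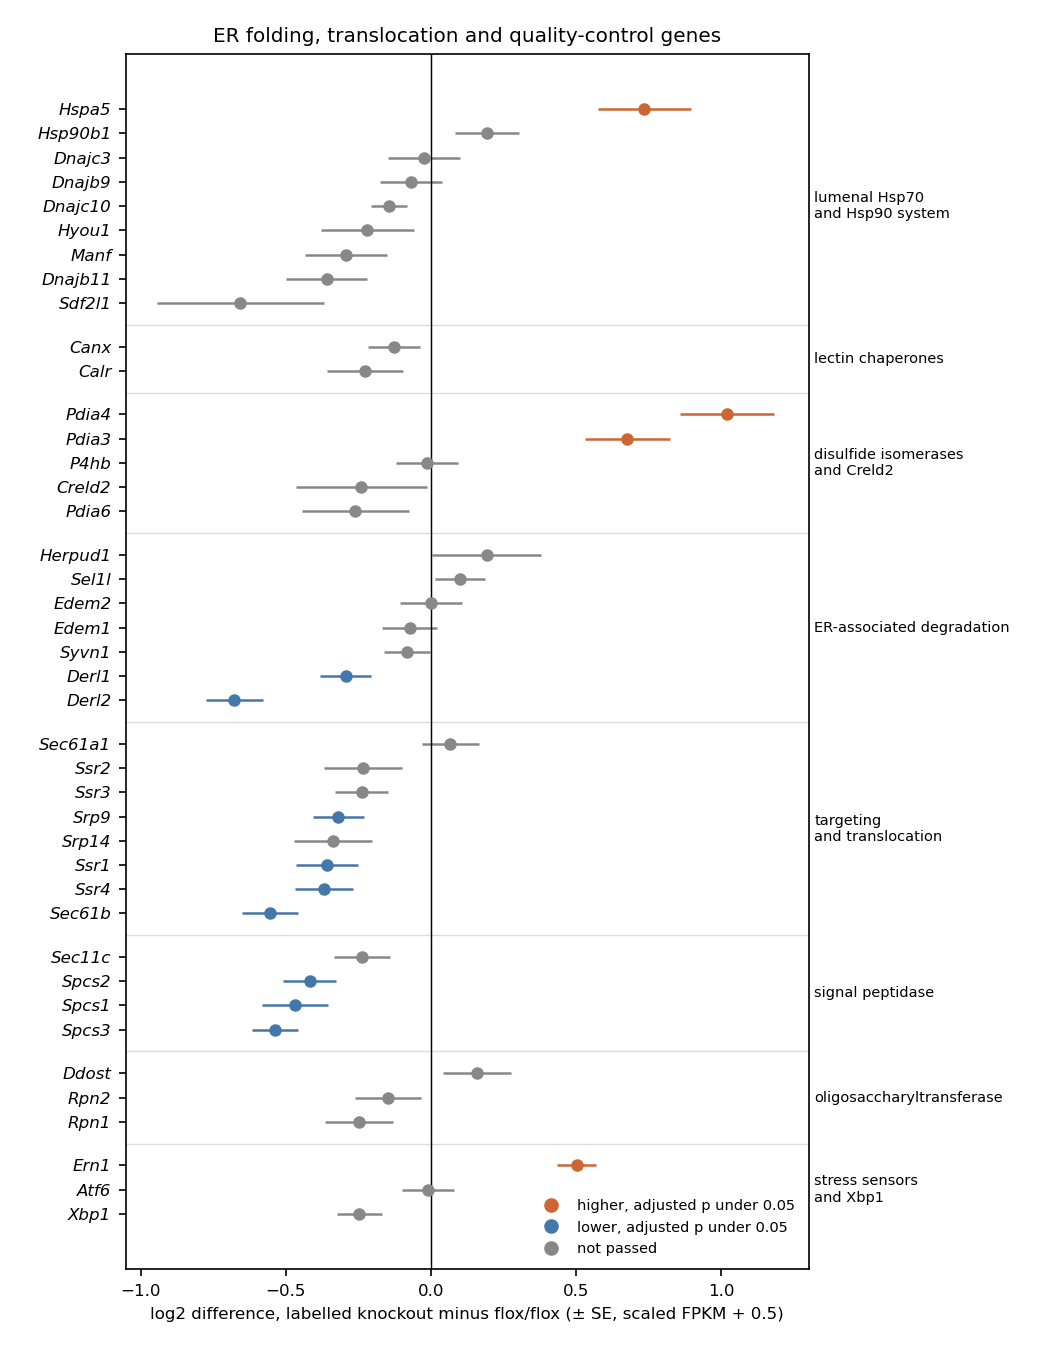
Log2 difference (labelled knockout minus flox/flox, with its standard error) of each of the 41 genes on the deposited scale, grouped by role and coloured by call. Hspa5, Pdia3, Pdia4 and Ern1 lie at 0.50 or more, and 9 genes of protein entry and degradation lie lower, of which Derl1, Srp9, Ssr1 and Ssr4 come to lie above 0 under scaling by library total.

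The libraries held 16398862 to 18387313 reads, and each member had 1030 to 43696 reads in a library, so counting error was small. Mettl3 itself had 3.41 ± 0.52 scaled FPKM in flox/flox and 4.14 ± 0.07 in the labelled knockout (SD, n = 3 each, limma adjusted p = 0.12). A whole-gene value can miss a deletion of a few exons, and the labels were therefore not checked by it. Flox/flox library 2 stood apart: it was the highest of its group for 37 of the 41 members (90.2%, against 36.6% of all genes tested), and without it the median over the set was -0.053. Library 3 lay between the other 2 libraries for 32 members in flox/flox (78%, against 42.2% of all genes) and for 21 in the labelled knockout (51.2%, against 51.4%). With library 3 of both groups left out, limma called 0 of 41 members (4 higher and 7 lower at an unadjusted p under 0.05), and 507 genes higher and 419 lower among all genes, while the 13 members called with all libraries kept their direction.

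The deposited values set the typical gene to no change, while the share of reads taken by insulin mRNA differed between the groups. Reads of Ins1 and Ins2 took 25.8% to 31.6% of all reads in flox/flox and 14.4% to 15.1% in the labelled knockout. The 41 members took 0.935% to 1.28% of all reads in flox/flox and 1.44% to 1.53% in the labelled knockout. On a scale of reads per library total, the median of all genes tested moved to 0.36 and that of the members to 0.18, still below it. On that scale 18 members were called higher, among them Hspa5, Pdia3, Pdia4 and Ern1, and 1 lower, Derl2. Of all genes tested on that scale, 52.4% were called higher and 4.87% lower. With insulin and mitochondrial genes left out of the totals the calls were 4 higher and 9 lower, as on the deposited scale. All other values are on the deposited scale.

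Whole islets hold many cell types, so fewer cells of a type and less RNA per cell cannot be told apart. Islet markers were present in every library: 10 β-cell markers summed to 257106 to 319383 scaled FPKM in flox/flox and 112093 to 125413 in the labelled knockout (9 of 10 lower), and 8 alpha and delta cell markers to 11101 to 15133 and 10273 to 15871 (1 higher and 1 lower of 7 tested). Ins1 and Ins2 made most of the β-cell sum, with 238281 to 299402 in flox/flox and 98527 to 106192 in the labelled knockout. Iapp, which did not pass, made most of the rest, with means of 16563.5 and 15390.2. Markers of plasma cells, B cells, T cells and enterocytes were low in flox/flox and higher in the labelled knockout. Plasma-cell markers summed to 38.7 to 43.7 in flox/flox and 1173 to 1930 in the labelled knockout (7 higher and 1 lower of 9 tested, Tnfrsf17 without reads in flox/flox). B-cell markers went from 3.24 to 6.57 to 79.1 to 124.5 (8 of 8 higher), and T-cell markers from 1.41 to 2.81 to 20.1 to 36.3 (5 of 5 tested higher). Enterocyte markers went from 44.8 to 55.7 to 141.9 to 873 (11 of 11 tested higher, Alpi without reads in flox/flox), and goblet and Paneth cell markers from 13.4 to 39.1 to 29.5 to 94.5 (5 of 7 tested higher, Muc2, Clca1 and Defa24 without reads in flox/flox), with sums that overlapped. Zg16, which is also in the acinar list, made most of the goblet and Paneth sum in flox/flox. It had 11.3, 37.8 and 21.3 there and 16.0, 28.8 and 20.8 in the labelled knockout. Markers of acinar and endothelial cells were lower. Acinar markers, which encode digestive enzymes, summed to 939 to 2876 in flox/flox, highest in library 2, and to 448 to 803 in the labelled knockout (12 of 15 lower), and endothelial markers to 606 to 623 and 309 to 350.1 (8 of 8 lower). Macrophage markers summed to 142.7 to 167.9 and 148.5 to 180.2, with overlap (1 higher and 3 lower of 7 tested). Stellate cell and fibroblast markers summed to 106.4 to 118.7 and 71.5 to 75.2, although 5 of 7 tested were higher and 2 lower (Pdgfrb and Rgs5). Rgs5 made most of that sum, with means of 95.7 in flox/flox and 49.4 in the labelled knockout. Duct markers summed to 86.0 to 153.4 and 134.3 to 142.1 (0 higher and 1 lower of 6 tested). The part of these cell types in the differences of the members was not tested.

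**Figure D2:**
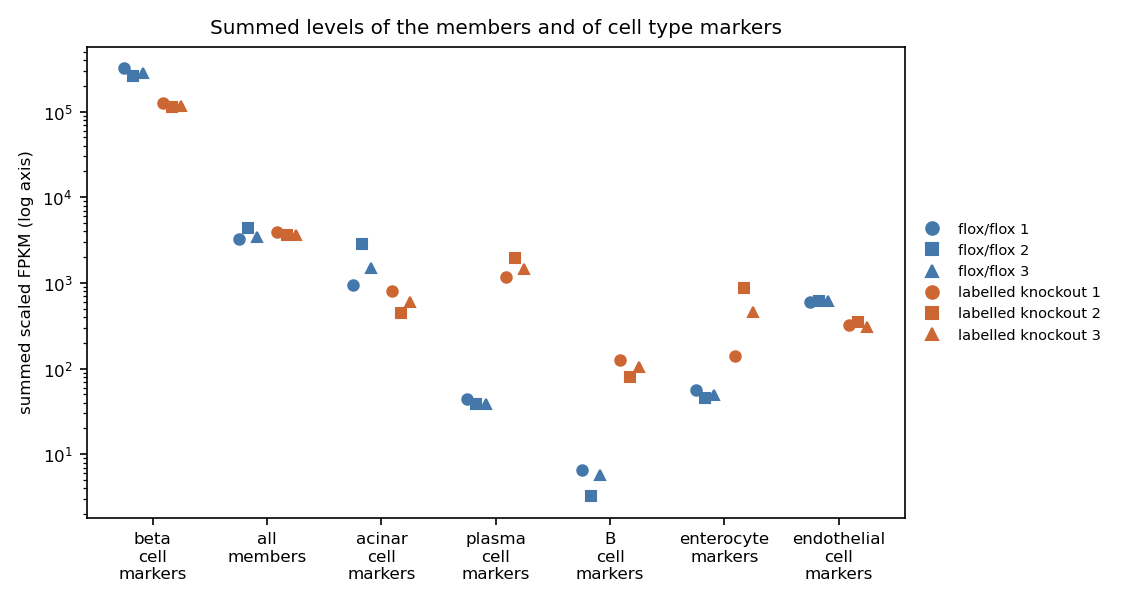
Summed scaled FPKM (log axis) of the 41 members and of cell type marker lists in each library, blue for flox/flox and orange for the labelled knockout. The members' sum overlaps between the groups, while the plasma-cell and B-cell sums lie higher and the β-cell sum lower in all 3 labelled-knockout libraries. The β-cell sum is mostly Ins1 and Ins2.

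The summed level of the 41 members was 3246, 4331 and 3471 scaled FPKM in flox/flox and 3966, 3597 and 3669 in the labelled knockout. The groups overlapped, and flox/flox library 2 was the highest of all 6. Per-length levels ran from 10.3 (Atf6) to 297.9 (P4hb) in flox/flox, and from 9.25 (Derl2) to 471 (Pdia3) in the labelled knockout. Insulin mRNA per unit of these mRNAs (summed FPKM of Ins1 and Ins2 over that of the members) was 92.3, 55.0 and 76.7 in flox/flox and 26.8, 27.4 and 27.1 in the labelled knockout.

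Hspa5 (BiP, ENSMUSG00000026864, plus strand of chromosome 2 from 34771970 to 34777547, GRCm38), the Hsp70 chaperone that binds unfolded chains in the ER lumen, was higher in the labelled knockout. It had 226, 343 and 260.3 scaled FPKM in flox/flox and 496, 423 and 445 in the labelled knockout. Every labelled-knockout library lay above every flox/flox library, by 1.66-fold on the means of the log scale. This was a log2 difference of 0.73 ± 0.16 (SE, limma adjusted p = 0.0147). The call was lost without flox/flox library 3 (adjusted p = 0.0547) or labelled-knockout library 3 (adjusted p = 0.0522), at log2 differences of 0.70 and 0.75, and the log2 difference was 1.14 under scaling by library total. Among the 3 labelled-knockout libraries Hspa5, Pdia3 and Pdia4 were highest in library 1 (496, 531 and 140.5 scaled FPKM). That library was the highest of its group for 26 of the 41 members (63.4%, against 41.4% of all genes tested). In that library the plasma-cell, T-cell, enterocyte, goblet and Paneth, and stellate marker sums were the lowest of the 3 (1173, 20.1, 141.9, 29.5 and 71.5), and the B-cell, alpha and delta cell, acinar, β-cell and macrophage sums the highest (124.5, 15871, 803, 125413 and 180.2). The part of these cells in the 3 genes was not tested. With that library alone against flox/flox, and its variation assumed to be that of the other group, the log2 differences of Hspa5, Pdia3, Pdia4 and Ern1 were 0.86, 0.86, 1.14 and 0.52 and none passed (adjusted p = 0.137, 0.0978, 0.0887 and 0.0530).

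None of the other 8 genes of the lumenal Hsp70 and Hsp90 system passed. Hsp90b1 (GRP94), the ER member of the Hsp90 family, had 154, 196 and 163 scaled FPKM in flox/flox and 209, 183 and 192 in the labelled knockout (log2 difference 0.19, limma adjusted p = 0.22). Its groups overlapped, and 15.7% of its exon bases are shared with other annotated genes. Hyou1, a large Hsp70 relative that acts as a nucleotide exchange factor for BiP, had 57.3, 88.1 and 67.7 and then 55.6, 66.7 and 58.3 (log2 difference -0.22, adjusted p = 0.334). Dnajb11, a J-domain co-chaperone of BiP, had 27.2, 37.7 and 27.8 and then 21.6, 25.9 and 23.8. Its groups did not overlap, but it did not pass (log2 difference -0.36, adjusted p = 0.0899). Sdf2l1, a partner of Dnajb11, varied widely between flox/flox libraries, with 69.4, 153 and 92.3, and had 54.4, 77.0 and 59.3 in the labelled knockout (log2 difference -0.66 ± 0.29, adjusted p = 0.121).

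The remaining members of the lumenal Hsp70 and Hsp90 system did not pass either. Dnajc3 (P58IPK) had 55.3, 77.8 and 62.8 scaled FPKM in flox/flox and 63.7, 63.4 and 63.8 in the labelled knockout (log2 difference -0.023). Dnajb9 (ERdj4), which restrains IRE1, had 88.4, 115.9 and 97.9 and then 99.3, 94.2 and 92.8 (log2 difference -0.069). Dnajc10 (ERdj5), a disulfide reductase, had 29.4, 29.8 and 30.8 and then 28.2, 26.9 and 26.2, with no overlap between the groups and no call (log2 difference -0.14, limma adjusted p = 0.112). Manf, a secreted and ER-resident survival factor that binds BiP, had 78.3, 112 and 83.3 and then 78.4, 73.2 and 69.3 (log2 difference -0.29, adjusted p = 0.153).

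BiP and its partners are classic targets of the unfolded protein response, so the start regions of the members were read from RefSeq (GRCm38.p6, 250 bases before to 50 after each start), where 33 of the 41 members had an entry. The ER stress response element (ERSE), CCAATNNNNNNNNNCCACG on either strand, is bound by NF-Y at CCAAT and by ATF6 at CCACG. It was in the window of 8 of the 33 members and of 39 of all 32851 promoters (0.119%). The sites are shown because they mark which members hold an exact match in this window. Fixed bases are in capitals, and positions are counted from the RefSeq start:
Calr (chr8:84847075-84847093, strand opposite the gene, site begins at -162): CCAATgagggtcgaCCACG
Canx (chr11:50325800-50325818, gene strand, site begins at -145): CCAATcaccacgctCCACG
Creld2 (chr15:88819520-88819538, strand opposite the gene, site begins at -126): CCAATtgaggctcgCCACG
Dnajc3 (chr14:118937827-118937845, gene strand, site begins at -105): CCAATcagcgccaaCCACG
Hsp90b1 (chr10:86705533-86705551, strand opposite the gene, site begins at -107): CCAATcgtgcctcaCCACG
Hsp90b1 (chr10:86705638-86705656, gene strand, site begins at -212): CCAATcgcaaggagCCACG
Hspa5 (chr2:34772025-34772043, gene strand, site begins at -65): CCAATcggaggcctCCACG
Pdia6 (chr12:17266491-17266509, gene strand, site begins at -98): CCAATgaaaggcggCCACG
Syvn1 (chr19:6046532-6046550, gene strand, site begins at -44): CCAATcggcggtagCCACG
Of these 8 genes, 1 was called higher (Hspa5) and 0 lower, and their median log2 difference was -0.10. Of the 25 members whose window held no match, 3 were higher and 7 lower, with a median of -0.24, and of the 8 without an entry 0 were higher and 2 lower. Hspa5 was thus called while the other 7 genes with an exact match did not pass, and whether ATF6 acts at these sites was not tested.

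ERSE-II, ATTGGNCCACG, shares its last 5 bases with ERSE and was found in 2 members and in 12 of 32851 promoters (0.0365%):
Dnajb11 (chr16:22857852-22857862, gene strand, site begins at 8): ATTGGcCCACG
Herpud1 (chr8:94386377-94386387, gene strand, site begins at -52): ATTGGgCCACG
Dnajb11 (log2 difference -0.36) and Herpud1 (0.19) carried it, and neither passed. TGACGTGG, the core of the UPRE bound by XBP1, whose end is the reverse complement of CCACG, was in 0 of the 33 members' windows and in 222 promoters (0.676%). ERSE with 1 mismatch in its last 5 bases, a search added after the values were seen, matched 7 members (Derl2, Herpud1, Hsp90b1, Pdia3, Pdia4, Rpn2 and Sel1l) and 293 promoters (0.892%). The starts of Hspa5, Pdia4 and Pdia6 set a called gene with an exact match beside a called gene without it and an uncalled gene with it. Pdia4 holds the form with 1 mismatch. The starts are given whole, capitals marking exact ERSE matches:
Hspa5 (chr2:34771840-34772139, plus strand): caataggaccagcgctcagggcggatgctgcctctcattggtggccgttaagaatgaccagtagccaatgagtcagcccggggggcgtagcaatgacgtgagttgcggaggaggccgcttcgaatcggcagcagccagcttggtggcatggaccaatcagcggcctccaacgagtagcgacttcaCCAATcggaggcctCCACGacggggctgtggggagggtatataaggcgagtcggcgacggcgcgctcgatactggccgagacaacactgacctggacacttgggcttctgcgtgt
Pdia4 (chr6:47813463-47813762, minus strand): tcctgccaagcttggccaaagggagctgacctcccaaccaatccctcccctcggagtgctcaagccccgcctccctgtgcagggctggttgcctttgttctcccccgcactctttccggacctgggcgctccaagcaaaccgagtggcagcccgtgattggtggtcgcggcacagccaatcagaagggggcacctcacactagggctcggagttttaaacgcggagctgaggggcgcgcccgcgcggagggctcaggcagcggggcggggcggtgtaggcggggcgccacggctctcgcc
Pdia6 (chr12:17266339-17266638, plus strand): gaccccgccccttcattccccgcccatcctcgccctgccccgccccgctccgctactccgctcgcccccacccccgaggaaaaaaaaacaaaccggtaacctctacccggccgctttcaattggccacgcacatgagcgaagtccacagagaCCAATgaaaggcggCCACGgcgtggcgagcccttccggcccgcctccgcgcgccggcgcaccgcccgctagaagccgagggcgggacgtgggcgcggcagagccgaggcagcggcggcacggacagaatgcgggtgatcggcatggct

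Pdia4 (ERp72, ENSMUSG00000025823, minus strand of chromosome 6 from 47796141 to 47813430), a disulfide isomerase of the ER lumen, rose most among the 41 genes. It had 52.2, 80.3 and 60.9 scaled FPKM in flox/flox and 140.5, 117 and 130.5 in the labelled knockout. The lowest labelled-knockout library lay well above the highest flox/flox library. This was a log2 difference of 1.02 ± 0.16 (SE, limma adjusted p = 0.00457), and the call was kept when any 1 library was left out. Pdia3 (ERp57, ENSMUSG00000027248, plus strand of chromosome 2 from 121413775 to 121438687), which works with calnexin and calreticulin on glycoproteins, rose as well. It had 258, 353 and 277 in flox/flox and 531, 417 and 465 in the labelled knockout, without overlap. The log2 difference was 0.68 ± 0.15 (adjusted p = 0.0146), and the call was lost without flox/flox library 3 (adjusted p = 0.0558) or labelled-knockout library 3 (adjusted p = 0.0540). The log2 difference was 1.08 under scaling by library total.

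The other isomerases and Creld2 did not pass. P4hb (PDI), with the highest level of the set in flox/flox, had 266, 343 and 285 scaled FPKM there and 295, 299 and 287 in the labelled knockout (log2 difference -0.013, limma adjusted p = 0.937). Pdia6 (P5) had 122, 207 and 147 and then 132, 129 and 127 (log2 difference -0.26, adjusted p = 0.315). Creld2, an ER protein induced by stress, had 49.8, 88.5 and 54.9 and then 49.8, 62.7 and 46.9 (log2 difference -0.24, adjusted p = 0.452). In all 3 genes flox/flox library 2 was the highest of the 6 libraries.

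Neither lectin chaperone passed. Calr (calreticulin), which holds monoglucosylated glycoproteins in the lumen, had 194, 274 and 210.4 scaled FPKM in flox/flox and 189, 192 and 192 in the labelled knockout, without overlap (log2 difference -0.23, limma adjusted p = 0.223). Canx (calnexin), its membrane-bound relative, had 71.3, 86.5 and 75.0 and then 74.5, 68.9 and 69.1 (log2 difference -0.13, adjusted p = 0.314). Pdia3, their partner, thus passed while both lectins did not.

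**Figure D3:**
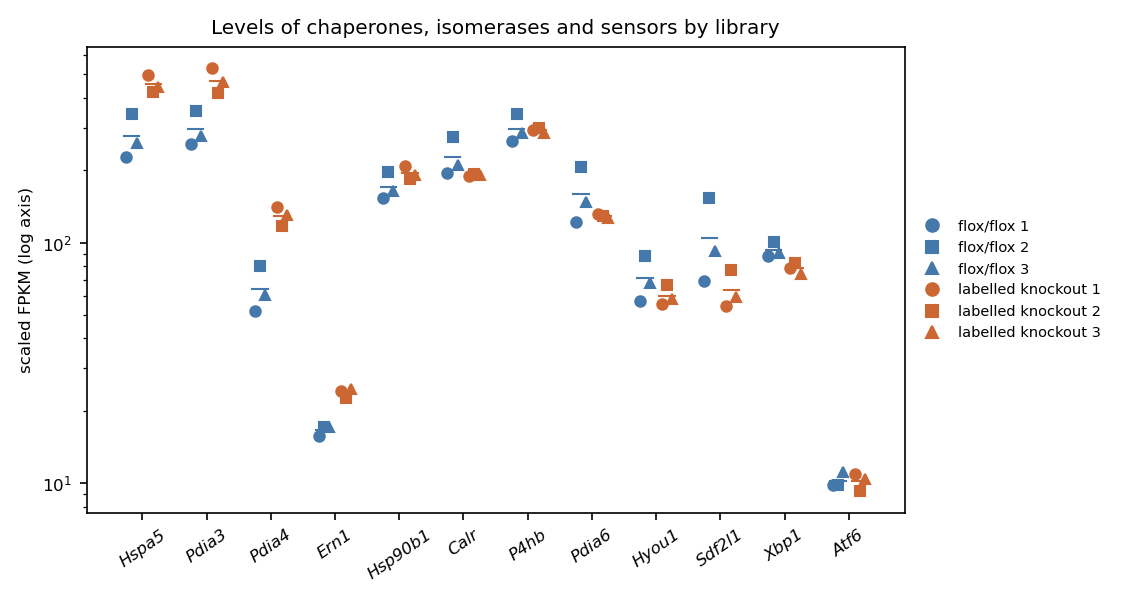
Scaled FPKM (log axis) of 12 chaperones, isomerases and sensors in each library, with short lines for group means. Hspa5, Pdia3, Pdia4 and Ern1 separate without overlap, while flox/flox library 2 (blue square) is the highest library for Calr, P4hb, Pdia6, Hyou1 and Sdf2l1.

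Ratios of 2 genes within a library do not depend on how libraries are scaled, and were computed for pairs chosen after the values were seen. Pdia4 mRNA per Pdia6 mRNA was 0.430, 0.387 and 0.414 in flox/flox and 1.07, 0.912 and 1.03 in the labelled knockout, 2.44 times higher on the means. Pdia3 per P4hb was 0.969, 1.03 and 0.974 and then 1.80, 1.40 and 1.62. Neither ratio overlapped between groups, but both pairs hold an isomerase that was called and one that was not. Chosen in this way, the pairs add no support beyond the calls.

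Hspa5 was also higher in each labelled-knockout library relative to Hyou1, Dnajb11, Dnajc3, Hsp90b1 and Calr, none of which passed. Sil1, an exchange factor of BiP outside the set that was called higher, was not among these pairs. Hspa5 per Hyou1 was 3.95, 3.89 and 3.85 in flox/flox and 8.91, 6.34 and 7.64 in the labelled knockout. Hspa5 per Dnajb11 was 8.32, 9.11 and 9.36 and then 22.9, 16.3 and 18.7, and per Dnajc3 4.10, 4.41 and 4.14 and then 7.78, 6.67 and 6.99. Flox/flox library 2, which had the highest level of each of these genes in its group, had ratios close to those of the other flox/flox libraries. Hspa5 per Hsp90b1 went from 1.47, 1.75 and 1.59 to 2.37, 2.31 and 2.32, and per Calr from 1.17, 1.25 and 1.24 to 2.63, 2.20 and 2.33. Insulin mRNA per Hspa5 mRNA was 1322, 694 and 1022 in flox/flox and 214, 233 and 223 in the labelled knockout.

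**Figure D4:**
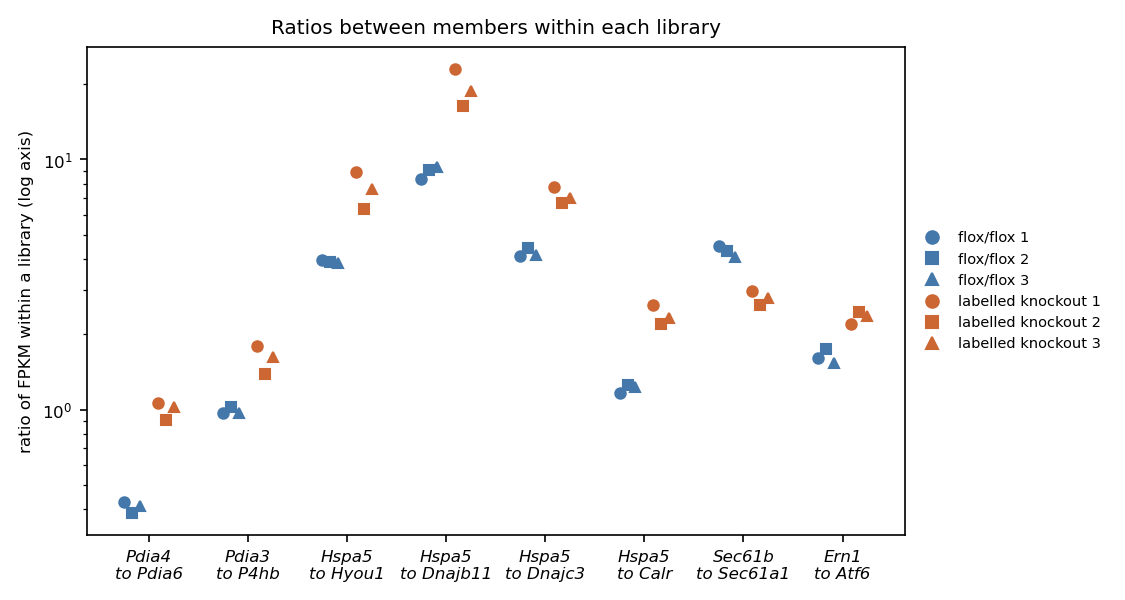
Ratio of the scaled FPKM of 2 genes within each library (log axis), blue for flox/flox and orange for the labelled knockout. The pairs were chosen after the values were seen, so their separation adds no support beyond the calls. Each of the 8 ratios separates the groups without overlap: Sec61b to Sec61a1 is lower and the other 7 are higher in the labelled knockout.

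Of the 8 genes of targeting and translocation, 4 were called lower and 0 higher (median log2 difference -0.33), beside 17.2% and 16.9% of all genes tested. However, 3 of the 4 (Srp9, Ssr1 and Ssr4) turned above 0 under scaling by library total. Sec61b (ENSMUSG00000053317, plus strand of chromosome 4 from 47474658 to 47483242), the β subunit of the Sec61 channel, had 120.9, 148 and 121.2 scaled FPKM in flox/flox and 91.9, 84.2 and 88.1 in the labelled knockout. Every labelled-knockout library was below every flox/flox library. The log2 difference was -0.55 ± 0.10 (limma adjusted p = 0.00695), and the call was kept when any 1 library was left out. It was lost under scaling by library total (log2 difference -0.15, adjusted p = 0.227). Sec61a1, which forms the pore itself, had 26.7, 34.5 and 29.7 and then 31.0, 32.1 and 31.6, with overlap (log2 difference 0.066, adjusted p = 0.638). Sec61b per Sec61a1 was 4.53, 4.29 and 4.09 in flox/flox and 2.97, 2.62 and 2.79 in the labelled knockout.

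The translocon-associated protein (TRAP) complex, which helps chains with weak signal sequences to enter, has its 4 subunits in Ssr1 to Ssr4. Ssr1 had 20.6, 26.6 and 21.1 scaled FPKM in flox/flox and 16.8, 18.002 and 17.8 in the labelled knockout (log2 difference -0.36 ± 0.11, limma adjusted p = 0.0416). Ssr4 had 94.0, 113 and 96.7 and then 85.2, 72.4 and 77.3 (log2 difference -0.37 ± 0.10, adjusted p = 0.0308). Ssr3, with 62.6, 78.3 and 66.4 and then 58.3, 58.7 and 57.6, did not overlap and did not pass (log2 difference -0.24, adjusted p = 0.0873). Ssr2, with 101, 136 and 97.2 and then 97.8, 94.1 and 89.2, overlapped (log2 difference -0.23, adjusted p = 0.224). The calls of Ssr1 and Ssr4 each rested on single libraries. Ssr1 was lost without flox/flox library 3 or any labelled-knockout library (adjusted p = 0.0680, 0.1004, 0.0772 and 0.106). Ssr4 was lost without flox/flox library 2 or 3 or labelled-knockout library 2 or 3 (adjusted p = 0.0654, 0.0678, 0.0810 and 0.0996). Under scaling by library total their log2 differences were 0.038 and 0.036.

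Srp9 and Srp14 form the part of the signal recognition particle that pauses translation. Srp9 had 18.5, 21.9 and 18.2 scaled FPKM in flox/flox and 16.2, 15.3 and 15.0 in the labelled knockout (log2 difference -0.32 ± 0.09, limma adjusted p = 0.0321). Its call was lost without flox/flox library 1 or 2 or labelled-knockout library 2 or 3 (adjusted p = 0.0545, 0.0503, 0.0760 and 0.110), and its log2 difference was 0.076 under scaling by library total. Of its exon bases 14.1% are shared with a gene on the opposite strand, and whether counting used the strand is not stated. Srp14 had 69.4, 85.3 and 68.2 and then 68.1, 51.2 and 57.1, a narrow gap without a call (log2 difference -0.34, adjusted p = 0.0933).

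Signal peptidase cuts the signal sequence from preproinsulin and other entering chains. Of its 5 measured genes, 4 of them in the set, 3 were called lower, all of them accessory subunits. Of all genes tested, 17.2% were called lower. Spcs3 (ENSMUSG00000054408, minus strand of chromosome 8 from 54520433 to 54529998) had 88.6, 102 and 95.9 scaled FPKM in flox/flox and 69.7, 63.7 and 63.4 in the labelled knockout (log2 difference -0.54 ± 0.08, limma adjusted p = 0.00355). Spcs1 had 77.2, 100.1 and 79.3 and then 65.2, 61.1 and 57.7 (log2 difference -0.47 ± 0.11, adjusted p = 0.0210). Spcs2 had 58.2, 71.5 and 60.1 and then 49.2, 46.3 and 45.7 (log2 difference -0.42 ± 0.09, adjusted p = 0.0153). In none of these 3 did the groups overlap. Spcs3 kept its call when any 1 library was left out, Spcs1 lost it without labelled-knockout library 2 or 3 (adjusted p = 0.0519 and 0.0809) and Spcs2 without labelled-knockout library 3 (adjusted p = 0.0648).

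Sec11c, a catalytic subunit, had 46.4, 55.3 and 44.3 scaled FPKM in flox/flox and 43.0, 39.2 and 40.97 in the labelled knockout, without overlap and without a call (log2 difference -0.24, limma adjusted p = 0.0998). Sec11a, the other catalytic subunit, which is outside the set and was added after its values were seen, had 12.05, 14.4 and 12.8 and then 11.2, 10.9 and 11.1, also without overlap and without a call (log2 difference -0.23, adjusted p = 0.0628). Under scaling by library total Spcs1, Spcs2 and Spcs3 had log2 differences of -0.066, -0.016 and -0.13, none of which passed. Spcs1 shares 16.3% of its exon bases with Glt8d1 on the opposite strand, and a pseudogene named for Spcs2 is annotated, so their reads may be shared.

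The oligosaccharyltransferase subunits, which transfer N-glycans to entering chains, did not pass. Ddost had 162, 197 and 161 scaled FPKM in flox/flox and 214, 172 and 193 in the labelled knockout (log2 difference 0.16, limma adjusted p = 0.341). Rpn1 had 65.9, 87.3 and 70.1 and then 63.0, 65.8 and 58.0, with a narrow gap and no call (log2 difference -0.25, adjusted p = 0.147). Rpn2 had 87.1, 111 and 87.6 and then 91.9, 81.7 and 82.8 (log2 difference -0.15, adjusted p = 0.350). Ddost thus lay above 0 and both ribophorins below it.

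**Figure D5:**
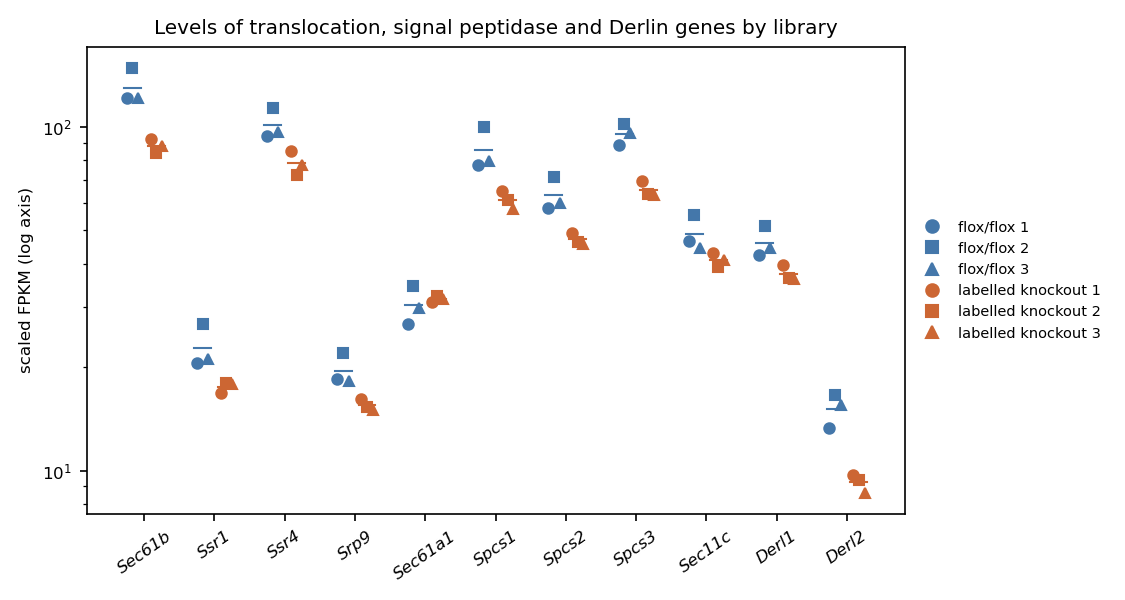
Scaled FPKM (log axis) of 11 genes of translocation, signal peptidase and the Derlins in each library, with short lines for group means. Sec61a1 overlaps between groups, while the 3 labelled-knockout libraries lie below the flox/flox libraries in the other 10, a direction that turns for Srp9, Ssr1, Ssr4, Sec11c and Derl1 under scaling by library total.

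Genes of the same steps outside the 41 were called in both directions. For the counts by list here and below, 16.9% of all genes tested were called higher and 17.2% lower. Among 25 further genes of targeting and translocation, 3 were higher and 7 lower (median -0.16), and among 10 of signal peptidase and oligosaccharyltransferase 1 was higher and 5 lower (median -0.35). Sec61g, the small γ subunit of the channel, had 41.4, 51.7 and 34.4 scaled FPKM in flox/flox and 26.4, 25.0 and 26.9 in the labelled knockout (log2 difference -0.67, limma adjusted p = 0.0132). Emc9, of the ER membrane complex that inserts membrane proteins, fell by 0.72 on the log2 scale (adjusted p = 0.00804). Neither passed under scaling by library total (log2 differences -0.27 and -0.35, adjusted p = 0.137 and 0.0572). Emc6, of the same complex, rose (log2 difference 0.48, adjusted p = 0.0191), a call lost without flox/flox library 1 or 2 or labelled-knockout library 3 (adjusted p = 0.0584, 0.0536 and 0.0541). Tram2, a translocon-associated membrane protein, rose from 1.04 to 1.17 to between 1.92 and 2.07 (log2 difference 0.62), a call lost without labelled-knockout library 3 (adjusted p = 0.0561).

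Oligosaccharyltransferase subunits outside the set were called in both directions. Stt3b, named after its values were seen, was higher (log2 difference 0.44, limma adjusted p = 0.0286). Stt3a, also named after its values were seen, did not pass (log2 difference -0.011). Magt1, an oxidoreductase subunit, had 55.4, 54.4 and 49.1 scaled FPKM in flox/flox and 30.6, 33.3 and 32.0 in the labelled knockout (log2 difference -0.72 ± 0.07, limma adjusted p = 0.000961). Tmem258, Dad1 and Krtcap2 had log2 differences of -0.67, -0.49 and -0.47 (adjusted p = 0.0111, 0.0101 and 0.0229), and Krtcap2 was lost without labelled-knockout library 2 or 3 (adjusted p = 0.0504 and 0.0843). Under scaling by library total Magt1, Tmem258, Dad1 and Krtcap2 kept a log2 difference below 0. Magt1 alone among these 4 passed (log2 difference -0.32, adjusted p = 0.00994).

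Of the 7 degradation members, 2 were lower, both Derlins, which form the channel that passes misfolded chains back to the cytosol, and 5 did not pass. Derl2 (ENSMUSG00000018442, minus strand of chromosome 11 from 71007164 to 71019841) had 13.3, 16.6 and 15.5 scaled FPKM in flox/flox and 9.69, 9.41 and 8.64 in the labelled knockout. The log2 difference was -0.68 ± 0.10 (limma adjusted p = 0.00323), the lowest of the 41, and the call was kept when any 1 library was left out. It also passed under scaling by library total (log2 difference -0.29, adjusted p = 0.0483). Derl1 had 42.4, 51.3 and 44.4 and then 39.6, 36.4 and 36.1 (log2 difference -0.29 ± 0.09, adjusted p = 0.0437). Its call was lost without flox/flox library 2 or 3 or labelled-knockout library 2 or 3 (adjusted p = 0.0822, 0.0909, 0.102 and 0.142), and its log2 difference was 0.11 under scaling by library total. Derl2 per Derl1 was 0.313, 0.323 and 0.349 in flox/flox and 0.245, 0.258 and 0.239 in the labelled knockout.

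The ubiquitin ligase complex that works with the Derlins did not pass. Sel1l, its adaptor, had 13.4, 16.4 and 13.98 scaled FPKM in flox/flox and 15.8, 15.3 and 15.7 in the labelled knockout (log2 difference 0.10, limma adjusted p = 0.413). Syvn1 (Hrd1), the ligase, had 23.2, 26.0 and 22.1 and then 22.1, 23.3 and 21.7 (log2 difference -0.082). Herpud1, which organises the complex and is induced by stress, had 84.5, 75.5 and 83.1 and then 120.4, 69.6 and 94.4 (log2 difference 0.19, adjusted p = 0.471). The labelled-knockout libraries thus lay on either side of flox/flox for Herpud1. Edem1 and Edem2, which trim mannose from chains sent for degradation, had log2 differences of -0.073 and -0.00066, with Edem1 at 14.2 to 18.1 and then 14.6 to 15.6, and Edem2 at 44.1 to 46.6 and then 38.7 to 51.2.

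Among 28 further genes of degradation, 2 were higher and 5 lower (median -0.024). Selenos and Selenok, selenoproteins of the Derlin complex, had log2 differences of -0.45 and -0.43 (limma adjusted p = 0.0362 and 0.0187). Selenos was lost without flox/flox library 3 or any labelled-knockout library (adjusted p = 0.0647, 0.0847, 0.0548 and 0.115), and Selenok without either library 3 (adjusted p = 0.0521 and 0.0556). Their log2 differences under scaling by library total were -0.045 and -0.024 (adjusted p = 0.791 and 0.854). Aup1, which recruits a ubiquitin-conjugating enzyme, had a log2 difference of -0.39 (adjusted p = 0.0119), which was 0.0061 under scaling by library total and lost its call without labelled-knockout library 3 (adjusted p = 0.0546). Rnf139, a membrane ubiquitin ligase, rose (log2 difference 0.40, adjusted p = 0.00630).

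Ern1 (IRE1α, ENSMUSG00000020715, minus strand of chromosome 11 from 106394650 to 106487852), the kinase and endoribonuclease that splices Xbp1 mRNA, was higher in the labelled knockout. It had 15.8, 17.1 and 17.1 scaled FPKM in flox/flox and 24.2, 22.6 and 24.7 in the labelled knockout. The groups were tight and did not overlap, and flox/flox library 2 did not stand apart for this gene. This was a log2 difference of 0.50 ± 0.07 (SE, limma adjusted p = 0.00258), and the call was kept when any 1 library was left out. The log2 difference was 0.90 under scaling by library total. Xbp1, whose spliced mRNA encodes a transcription factor for ER genes, had 88.2, 100.3 and 90.4 and then 78.8, 82.1 and 73.8. Its groups did not overlap, and it missed the threshold narrowly (log2 difference -0.25 ± 0.08, adjusted p = 0.0511). It passed in 3 of 17 alternatives, among them a pseudocount of 0.1 (adjusted p = 0.0490) and voom on recovered reads, which was chosen after seeing the data (adjusted p = 0.0385). Its log2 difference was 0.16 under scaling by library total (adjusted p = 0.139). Gene-level values do not separate spliced from unspliced Xbp1 mRNA. Atf6, the sensor that is cut in the Golgi to become a transcription factor, had 9.85, 9.83 and 11.1 and then 11.0, 9.26 and 10.4 (log2 difference -0.011, adjusted p = 0.940). Ern1 per Atf6 was 1.60, 1.74 and 1.54 in flox/flox and 2.20, 2.45 and 2.38 in the labelled knockout.

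Of 14 further tested genes of sensing, processing and ER-phagy, 4 were higher and 2 lower (median 0.069). Eif2ak3 (PERK), the third sensor, had 8.37, 10.03 and 9.38 scaled FPKM in flox/flox and 10.7, 8.82 and 10.3 in the labelled knockout (log2 difference 0.093, limma adjusted p = 0.513). Fam134b, a receptor for ER-phagy, had 2.12, 2.54 and 2.21 and then 9.77, 6.41 and 8.44 (log2 difference 1.63 ± 0.15, adjusted p = 0.000753). Creb3l3, a membrane-bound factor of liver and intestine, had 0.110, 0.298 and 0.179 and then 0.954, 6.90 and 3.33. Its order in the labelled knockout was that of the enterocyte markers, which summed to 141.9, 873 and 453 in the same libraries, and its part in those cells was not tested. Its log2 difference was 2.32 (adjusted p = 0.0208), lost without flox/flox library 1 or 3 or labelled-knockout library 3 (adjusted p = 0.0599, 0.0596 and 0.0762). Atf6b, a relative of Atf6, and Creb3l1 fell by 0.55 and 0.50 on the log2 scale (adjusted p = 0.0178 and 0.00847), and Atf6b was lost without labelled-knockout library 3 (adjusted p = 0.0616). Neither passed under scaling by library total (log2 differences -0.15 and -0.11, adjusted p = 0.366 and 0.345).

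Of 10 targets downstream of PERK, 1 was higher and 4 were lower (median -0.092). Ddit3 (CHOP), a transcription factor linked to cell death in prolonged stress, had 16.7, 20.5 and 18.5 scaled FPKM in flox/flox and 8.90, 9.67 and 9.15 in the labelled knockout (log2 difference -0.97 ± 0.09, limma adjusted p = 0.000674), and passed under scaling by library total at -0.58 (adjusted p = 0.00307). Atf4, the factor whose translation PERK raises, had 115, 114 and 105 and then 95.6, 87.0 and 87.3 (log2 difference -0.31, adjusted p = 0.0199). The call of Atf4 was lost without flox/flox library 1 or 2 or labelled-knockout library 2 or 3 (adjusted p = 0.0644, 0.0506, 0.0528 and 0.0866), and its log2 difference was 0.096 under scaling by library total. Chac1, an Atf4 target that degrades glutathione, had a log2 difference of -0.41 (adjusted p = 0.0399), lost without flox/flox library 1 or 3 or labelled-knockout library 2 or 3 (adjusted p = 0.0912, 0.116, 0.0979 and 0.103) and under scaling by library total (log2 difference -0.047, adjusted p = 0.755). Ppp1r15b, a phosphatase subunit that reverses the PERK signal, had 10.1, 9.70 and 10.3 and then 15.3, 15.0 and 16.0 (log2 difference 0.60 ± 0.06, adjusted p = 0.00102). Hspa5 and Ern1 were thus higher in the libraries in which Ddit3 was lower.

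Folding enzymes outside the 41 were also called in both directions. Ero1lb, the oxidase that feeds disulfide bonds to isomerases and is abundant in β cells, had 324, 342 and 329 scaled FPKM in flox/flox and 124.7, 132 and 127 in the labelled knockout (log2 difference -1.37 ± 0.07, limma adjusted p = 7.5e-05). Like the β-cell marker sum (257106 to 319383 in flox/flox and 112093 to 125413 in the labelled knockout), it was lower in the labelled knockout. That sum is mostly Ins1 and Ins2. Within each group, however, the order of Ero1lb over the libraries was the reverse of that of the sum. The part of β-cell number in the difference of Ero1lb was not tested. Its paralogue Ero1l, named after its values were seen, had 7.73 to 7.99 and then 7.90 to 8.36 (log2 difference 0.038, adjusted p = 0.664). Prdx4, an ER peroxiredoxin that oxidises isomerases by another route, had 9.95, 11.2 and 8.28 and then 21.2, 16.2 and 16.9 (log2 difference 0.85, adjusted p = 0.00550). Pdia5 fell by 0.53 and Qsox1, a sulfhydryl oxidase, rose by 0.52 on the log2 scale (adjusted p = 0.00159 and 0.0125). Pdia5 did not pass under scaling by library total (log2 difference -0.13, adjusted p = 0.117). In all, 2 of 15 tested genes of disulfide formation were higher and 3 lower (median 0.019).

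Sil1, the other nucleotide exchange factor of BiP beside Hyou1, had 33.1, 34.8 and 31.9 scaled FPKM in flox/flox and 82.8, 52.6 and 66.5 in the labelled knockout. The groups did not overlap (log2 difference 0.98 ± 0.16, limma adjusted p = 0.00479). Library 1 was the highest of the labelled knockout, as for Hspa5 and for 41.4% of all genes tested. Sil1 per Hyou1 was 0.577, 0.395 and 0.472 and then 1.49, 0.789 and 1.14. Fkbp2 and Fkbp14, prolyl isomerases, had log2 differences of -0.60 and -0.49 (adjusted p = 0.00198 and 0.00600), and neither passed under scaling by library total (-0.20 and -0.11, adjusted p = 0.0507 and 0.331). Mogs, the glucosidase that starts glycan trimming, rose (log2 difference 0.50, adjusted p = 0.0185), a call lost without flox/flox library 1 or 3 (adjusted p = 0.0589 and 0.0652). Of 21 tested chaperones and folding enzymes, 3 were higher and 2 lower (median -0.00082). Over all 123 tested genes outside the set, 16 were higher (13%) and 28 lower (22.8%), beside 9.76% and 22% of the members. Under scaling by library total 72 of these genes were higher and 3 lower (Ero1lb, Ddit3 and Magt1), beside 52.4% and 4.87% of all genes tested. On that scale Emc6, Rnf139, Ppp1r15b, Qsox1 and Mogs, higher on both scales, had log2 differences of 0.88, 0.76, 0.99, 0.92 and 0.90.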

How the data were processed

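The submitters' processing notes name the GRCm38 build (patch 6) and the tools DESeq2 (1.16.1), HISAT2 (2.0.5) and featureCounts (1.5.0-p3), without settings or strandedness. The authors deposited 1 table of FPKM per gene. FPKM times gene length gave whole reads (100% of values within 0.1 of a whole number), so depth is 16398862 to 18387313 reads per library, and a median-of-ratios scaling was already in the deposited values (factors of 1 here). No per-sample column was left unused (0). Chi-square per degree of freedom between replicates was 6.51 to 29.4, above sampling noise. Each library was counted as its own sample, which these values cannot establish, since technical variation can also exceed sampling noise.

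A two-sided limma fit (version 3.58.1, R 4.3.3, lmFit and eBayes with trend) used log2(scaled FPKM + 0.5) of the 14497 genes whose mean reached 1 scaled FPKM, and p-values were adjusted over all of them by Benjamini-Hochberg. The script was tested on simulated data. Differences on that scale understate changes of low genes. Fold changes are labelled knockout over flox/flox. The members, 7 lists of further pathway genes (128 of 129 entries matched, 123 tested) and 12 marker lists were chosen with earlier results of these data known. All members may be named, with up to 4 called genes of largest absolute log2 difference per further list, and Eif2ak3, Ddit3 and Atf4. Alternatives changed the pseudocount, filter, scaling, block, libraries and model. Promoters came from RefSeq (GRCm38.p6), exon overlaps from GENCODE.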

Additional observations from a re-analysis of the deposited data

How the results depend on the processing

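Over the alternatives tried, the 4 higher members kept their direction. Pseudocounts of 0.1 and 1, a filter at 5 and totals without insulin and mitochondrial genes left 4 members higher and 9 or 10 lower. Leaving out 1 library gave 2 to 4 members higher and 3 to 9 lower, and 8 to 17 further pathway genes higher and 15 to 27 lower. Without labelled-knockout replicates 2 and 3 (an alternative chosen after seeing the data, with 1 library left there) 0 members were higher and 0 lower (5 and 3 at an unadjusted p under 0.05 in limma), with 4 and 5 further genes. Without replicate 3 of both groups (also chosen after seeing the data) the members gave 0 and 0, and the further genes 2 and 4. Scaling to own reads gave 18 members higher and 1 lower and 72 further genes higher and 3 lower, beside 52.4% higher and 4.87% lower of all genes tested. Of all calls 91.5% were then higher, against 49.6% on the deposited scale. Without a filter, over 32456 genes, 5 members were lower, and after quantile normalization 6 were lower and 5 higher, with 21 further genes higher and 22 lower.

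Among the members and named further genes called under either scaling, own-read scaling turned the direction of Dnajb9 (0.33), Dnajc3 (0.38), Dnajc10 (0.26), Canx (0.28), P4hb (0.39), Syvn1 (0.32), Derl1 (0.11), Edem1 (0.32), Edem2 (0.40), Srp9 (0.076), Ssr1 (0.038), Ssr4 (0.036), Atf6 (0.38), Atf4 (0.096) and Aup1 (0.0061). It turned 26 of the 41 members, 13 of them called on either scale and 4 on the deposited one. Of the 123 further genes it turned 55, 33 of them called on either scale and 10 on the deposited one. The replicate block gave 4 members higher and 10 lower: Dnajb11, Sdf2l1 and Xbp1 gained a call (adjusted p = 0.0329, 0.0257 and 0.0393) and Derl1 and Ssr4 lost theirs (0.0703 and 0.0645). Same-numbered libraries correlated at 0.0811, 0.0751 and 0.0423 in their deviations, so the numbers were not taken as pairs, though each library correlated best with its own number. The planned count models on recovered reads were not run, since the deposited unit is FPKM, and voom, chosen after seeing the data, gave 4 and 10. The cause of these changes was not tested. With 3 libraries a group, small differences were not detectable.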
